A study of Arabidopsis thaliana with 12 samples.

Results

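Heat shock proteins are molecular chaperones, proteins that bind unfolded or misfolded proteins and help them refold, and a plant cell keeps separate sets of them in the cytosol, the mitochondria, the plastids, the endoplasmic reticulum and the peroxisomes. A list of 43 Arabidopsis thaliana loci was drawn up by family and by compartment, and 38 of these have a row in the deposited table of 20233 genes. Of the 38, 24 belong to the cytosol, 10 to the mitochondrion, 2 to the plastid, 1 to the endoplasmic reticulum and 1 to the peroxisome. By family they are 9 small heat shock proteins, 8 HSP70, 7 HSP90, 3 HSP100/ClpB, 4 HSP60/CPN10 and 7 co-chaperones or other heat response genes. The listed small heat shock protein genes HSP17.4, AT1G53540, HSP21, ATHSP22.0 and AT1G52560 have no row and were not analysed here, so the plastid and the endoplasmic reticulum have no small heat shock protein below. Loci are written as AT numbers where RefSeq gives no symbol, and compartments come from RefSeq descriptions or textbook knowledge. MBF1C, a transcriptional coactivator and not a chaperone, was counted with the cytosol.

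Small heat shock proteins hold unfolding proteins in a soluble state without using ATP. HSP70 with its J-domain partners and HSP100/ClpB disaggregases then return these proteins to their native form, HSP90 with its co-chaperones matures signalling proteins including immune receptors, and HSP60 with CPN10 forms a folding chamber inside mitochondria and, as related proteins, inside plastids. Many of the genes are transcribed by heat shock factors, and a part of each family is expressed all the time without stress.

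The libraries came from seedlings 2 to 3 weeks old, with leaf as the labelled tissue, collected 6 h after vacuum infiltration. There were 4 groups of 3 libraries. Mock is the control, the contents of its infiltration being not given in the sources used here. Valinomycin, an ionophore that carries potassium across membranes and collapses the potential of the inner mitochondrial membrane, was given at 10 µM. The bacterium Pseudomonas syringae pv. tomato DC3000, a leaf pathogen (DC3000 below), made up the third group and both agents together the fourth (both, below). No genotype or ecotype is given. The labels do not say that replicates are separate cultures, so p-values measure the spread between these libraries only. Since each library is a bulk sample, a change in cell number and a change in RNA per cell cannot be told apart.

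Values are in FPKM (fragments counted per transcript length and library size), a unit inferred from the deposited values. Tests were run over the 18048 genes whose mean over the 12 libraries reached 1 FPKM, all 38 members among them, with limma on log2(FPKM + 1), and calls were made where the Benjamini-Hochberg adjusted p was under 0.05. Group values are means ± SD with n = 3, and log2 fold changes are on the log2(FPKM + 1) scale with their standard errors. HSP17.6II and HSP23.6 had mock means under 1 FPKM and passed the limit through the groups where they are high. Their calls are therefore not independent of that limit, including where they count among the members called higher. Leaf markers were high in every library, the 6 leaf genes summing to 15895 FPKM or more. Of the 9 root markers 3 have a row, and these summed to 23.4 FPKM or less, and the 6 guard cell markers summed to 27.6 to 43.7 FPKM. The seed marker with a row, LEA7 (1 of 6), ran from 20.9 to 162 FPKM in mock, 3.44 to 69.7 with valinomycin, 2.32 to 134 with DC3000 and 0.236 to 1.19 with both. LEA7 was called lower with both than with mock and than with DC3000 (log2 fold changes -5.03 and -4.07), and its part in the members' values was not tested. Genes encoded in the chloroplast made up 31.1% to 42.7% of a library's summed FPKM, and library totals ran from 1.06e+06 to 1.35e+06 FPKM. All 12 circadian clock genes listed differed from mock in each treated group, 7 higher and 5 lower. The morning clock gene LHY had means of 266 ± 52.9 FPKM (mock), 9.13 ± 7.23 (valinomycin), 1.305 ± 0.699 (DC3000) and 2.83 ± 1.05 (both), so the clock moved with every comparison with mock below, and its part in them was not tested.

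Promoters are shown for the members with the largest rise with valinomycin in each of cytosol, mitochondrion and the other compartments, so that genes that moved together can be compared letter by letter with genes that did not. Each stretch runs 5′ to 3′ on the gene's own strand and ends at the base before the annotated start, from the TAIR10.1 genome and RefSeq annotation. Capitals mark the 2-unit heat shock element (GAANNTTC or TTCNNGAA, which heat shock factors bind) or the mitochondrial dysfunction motif, known from nuclear genes that respond to mitochondrial stress. The latter was searched here as CTTGNNNNNCANG, with any base allowed at each N. This pattern may be looser than the motif itself, and stricter forms were not searched. HSP17.6A (chr5:3884839-3885088, minus strand) and HSP17.6II (chr5:3883112-3883361, minus strand) are the cytosolic members with the largest rise with valinomycin. AT5G51440 (chr5:20890913-20891162, plus strand) and HSP23.6 (chr4:12916676-12916925, plus strand) are the mitochondrial ones. HSP90-7 (chr4:12556059-12556308, minus strand, endoplasmic reticulum) and AT5G37670 (chr5:14968508-14968757, plus strand, peroxisome) were not called with valinomycin. mtHSC70-1 (chr4:17828193-17828442, minus strand) and HSP90-1 (chr5:21352217-21352306, plus strand, from 340 to 251 bases before the start) were added after their matches were seen.
HSP17.6A: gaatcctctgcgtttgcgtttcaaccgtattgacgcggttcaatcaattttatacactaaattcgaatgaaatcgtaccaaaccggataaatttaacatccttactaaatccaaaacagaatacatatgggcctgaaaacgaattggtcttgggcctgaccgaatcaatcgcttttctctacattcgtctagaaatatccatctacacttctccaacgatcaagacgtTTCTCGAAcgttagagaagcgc
HSP17.6II: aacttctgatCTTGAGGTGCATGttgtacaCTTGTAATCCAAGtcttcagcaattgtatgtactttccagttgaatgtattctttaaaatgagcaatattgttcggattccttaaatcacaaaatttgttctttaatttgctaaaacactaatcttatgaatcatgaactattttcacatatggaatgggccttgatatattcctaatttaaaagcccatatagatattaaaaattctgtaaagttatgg
AT5G51440: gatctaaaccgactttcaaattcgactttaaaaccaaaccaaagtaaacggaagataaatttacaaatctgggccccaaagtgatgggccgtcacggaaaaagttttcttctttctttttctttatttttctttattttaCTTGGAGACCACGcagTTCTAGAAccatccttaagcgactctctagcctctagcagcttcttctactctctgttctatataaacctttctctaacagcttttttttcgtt
HSP23.6: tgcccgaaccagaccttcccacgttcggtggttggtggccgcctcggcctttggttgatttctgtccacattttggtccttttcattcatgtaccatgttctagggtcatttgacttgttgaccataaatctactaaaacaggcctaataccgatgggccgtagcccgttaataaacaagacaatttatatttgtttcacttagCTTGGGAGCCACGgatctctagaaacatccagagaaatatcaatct
HSP90-7: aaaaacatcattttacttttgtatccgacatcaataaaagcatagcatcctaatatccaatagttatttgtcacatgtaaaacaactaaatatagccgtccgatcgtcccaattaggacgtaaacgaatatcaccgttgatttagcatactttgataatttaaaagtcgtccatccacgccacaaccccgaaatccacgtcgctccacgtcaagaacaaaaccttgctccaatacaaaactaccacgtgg
AT5G37670: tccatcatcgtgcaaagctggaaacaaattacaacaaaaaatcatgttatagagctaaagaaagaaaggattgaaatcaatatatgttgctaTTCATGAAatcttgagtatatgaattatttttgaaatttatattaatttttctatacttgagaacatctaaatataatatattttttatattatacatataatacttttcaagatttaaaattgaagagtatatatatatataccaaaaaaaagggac
mtHSC70-1: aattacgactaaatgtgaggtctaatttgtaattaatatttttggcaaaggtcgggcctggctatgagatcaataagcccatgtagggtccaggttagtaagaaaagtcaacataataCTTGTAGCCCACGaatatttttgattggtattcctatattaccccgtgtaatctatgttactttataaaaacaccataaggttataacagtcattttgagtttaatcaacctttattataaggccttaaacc
HSP90-1: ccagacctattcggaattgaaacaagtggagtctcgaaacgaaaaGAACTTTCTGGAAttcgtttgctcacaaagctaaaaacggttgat
In the 500 bases before the start, searched on both strands, the mitochondrial dysfunction motif as searched was present in 3 of 10 mitochondrial members (AT5G51440, HSP23.6 and mtHSC70-1) and in 1 of 24 cytosolic members (HSP17.6II, with 2 matches), against 2.88% of 20053 promoters of the table. The matches of the mitochondrial members end in CACG, and those of HSP17.6II in CATG and CAAG. In AT5G51440 the match to this motif lies 98 bases before the start, and a heat shock element lies 87 bases before the start. AT5G37670, which was not called, also has a heat shock element, 151 bases before its start. The 2-unit heat shock element was present in 10 of 38 members (26.3%), against 30.2% of all promoters, which is near the background. The 3-unit form (GAANNTTCNNGAA or TTCNNGAANNTTC, which holds overlapping 2-unit matches) was present in 1 member, HSP90-1, and in 0.868% of all promoters. A match is a description of these letters, not a binding site. Only exact matches in the 500 bases before the start were counted. A member without a match may still hold imperfect units or elements outside this window.

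The ionophore alone was compared with mock first. The small heat shock protein genes of cytosol and mitochondrion except HSP18.2, the inducible HSP70 and HSP90 genes, HSP101, CLPB4, mtHSC70-1 and the co-chaperone genes HOP3 and ROF2 rose, while HSP90-2 and HSP90-4, cytosolic HSP90 genes expressed without stress, and the plastid gene CLPB3 fell. Of 38 members 21 were called higher and 3 lower, where of all tested genes 52.3% were called, 38.5% higher and 13.8% lower. The median log2 fold change of the members was 0.57, against 0.27 over all tested genes. By compartment, 13 of 24 cytosolic members were higher and 2 lower (median 1.13), 8 of 10 mitochondrial members were higher and 0 lower (0 lower at an unadjusted p under 0.05; median 0.86), and of the 2 plastid members 1 was lower. After rescaling by median-of-ratios size factors, which moves the median of all genes to 0.01, 18 members were higher and 9 lower, and of all genes 4808 were higher and 4875 lower in place of 6943 and 2493. The lower count also ran from 1 without mock replicate 2 to 5 without mock replicate 3.

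**Figure D1:**
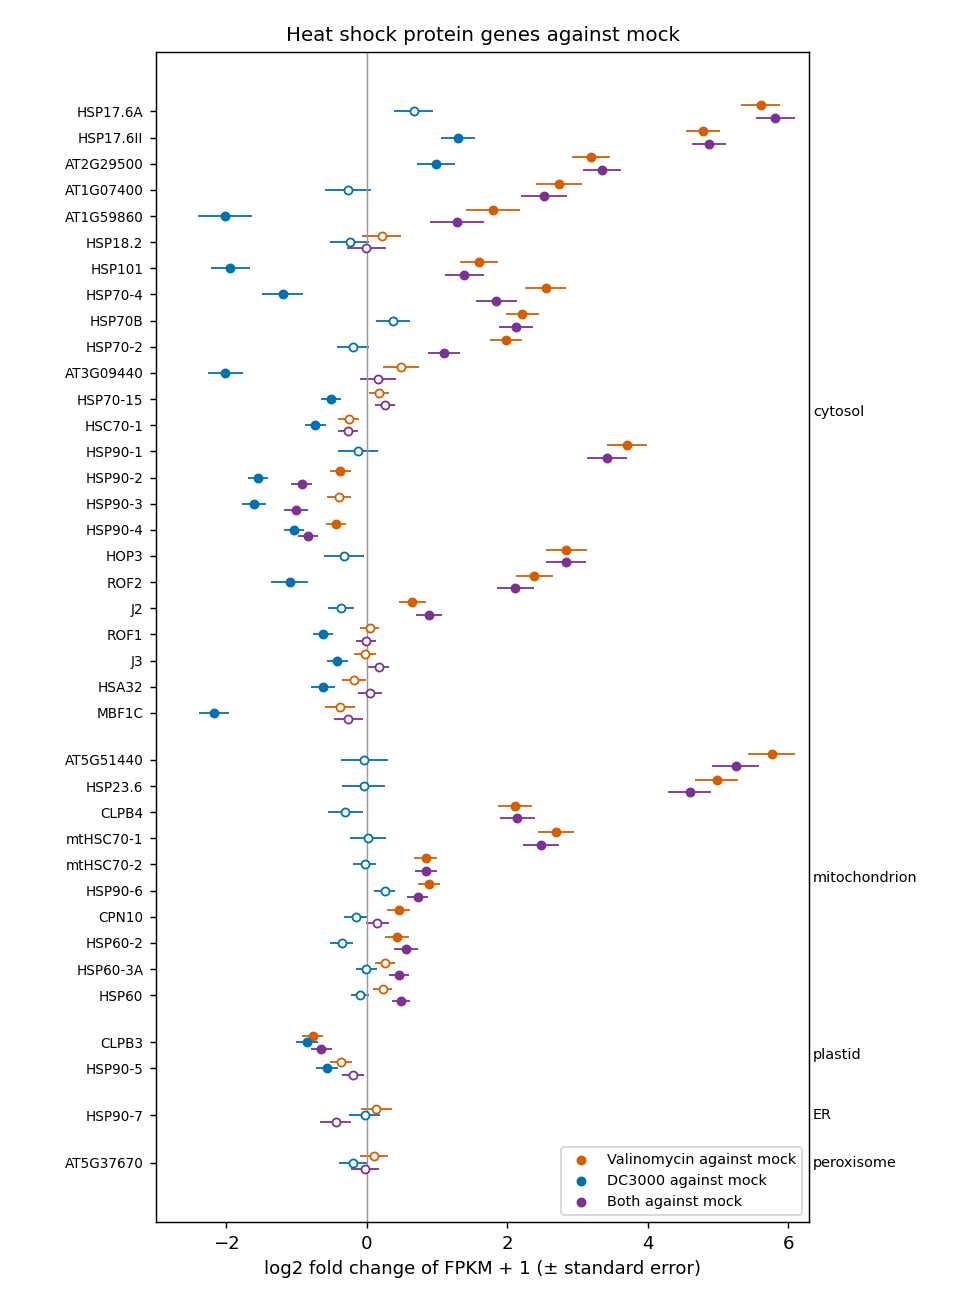
Log2 fold change of FPKM + 1 against mock for the 38 members, ordered by compartment, with 1 point per treated group and bars of 1 standard error; filled points were called by limma and open points were not. Points for valinomycin and for both treatments lie together far to the right for 7 of the 9 small heat shock proteins, HSP18.2 and AT5G37670 lying near 0, while points for DC3000 lie at or left of 0 for most cytosolic members and near 0 for all 10 mitochondrial members.

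Among the small heat shock proteins 7 of the 9 with a row rose with valinomycin (median log2 fold change 3.20). HSP17.6A (AT5G12030; chromosome 5, 3883957 to 3884838, minus strand) is a cytosolic class II small heat shock protein gene, the class that forms its own complexes apart from class I. It had library values of 0.878, 0.886 and 1.74 FPKM (mock), 146, 117 and 63.9 (valinomycin), 1.65, 2.97 and 2.71 (DC3000) and 103, 159 and 103 (both). Every library that received valinomycin lay above every library that did not, by a wide margin. The rise with valinomycin was 5.61 ± 0.28 on the log2 scale (limma adjusted p = 2.89e-09), and the difference between DC3000 and mock was not called (log2 difference 0.67 ± 0.28 with limma adjusted p = 0.0598), though it was when any 1 of 5 libraries was left out (mock replicate 3, valinomycin replicate 1 or 3, DC3000 replicate 1 or replicate 2 of both treatments; limma adjusted p from 0.0153 to 0.0487). Its class II neighbour HSP17.6II (AT5G12020; chromosome 5, 3882231 to 3883111, minus strand) had library values of 0.431, 0.184 and 0.549 FPKM (mock), 54.2, 34.8 and 26.98 (valinomycin), 1.77, 2.399 and 3.13 (DC3000) and 32.4, 51.3 and 36.9 (both). The 4 groups form 3 steps, with mock lowest, DC3000 just above it and both valinomycin groups far higher, where they overlap each other. It rose with valinomycin by 4.79 ± 0.24 (limma adjusted p = 3.3e-09) and with DC3000 by 1.296 ± 0.24 (limma adjusted p = 0.000504). The HSP17.6II calls are not independent of the limit on low values.

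The cytosolic class I genes followed in 3 different ways. AT2G29500 had library values of 3.03, 2.07 and 1.63 FPKM (mock), 38.01, 27.9 and 21.2 (valinomycin), 3.68, 5.099 and 7.84 (DC3000) and 28.6, 43.2 and 25.3 (both), and the treated groups lay above mock without overlap. It rose by 3.20 ± 0.27 (limma adjusted p = 3.85e-07) with valinomycin and by 0.99 ± 0.27 (limma adjusted p = 0.00726) with DC3000. AT1G59860 had library values of 7.44, 5.16 and 6.63 FPKM (mock), 47.5, 24.03 and 12.6 (valinomycin), 0.3501, 0.946 and 1.25 (DC3000) and 13.3, 28.9 and 12.3 (both). Here the DC3000 libraries were the lowest and the libraries given valinomycin, alone or with DC3000, the highest, with mock between them and no overlap. It rose by 1.79 ± 0.39 (limma adjusted p = 0.00146) with valinomycin and fell with DC3000, at -2.02 ± 0.39 (limma adjusted p = 0.000602). AT1G07400 rose from 8.68 ± 2.31 to 68.9 ± 37.1 FPKM with valinomycin (log2 difference 2.74 ± 0.33 with limma adjusted p = 1.05e-05) and was at 6.995 ± 1.49 FPKM with DC3000, which was not called (limma adjusted p = 0.528). HSP18.2, another class I gene, was low in all groups, between 0.62 and 3.04 FPKM, and the groups overlapped apart from DC3000 lying below mock. It was not called with valinomycin (log2 difference 0.21 ± 0.28 with limma adjusted p = 0.54).

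The mitochondrial small heat shock proteins protect proteins of the matrix. AT5G51440 (chromosome 5, 20891163 to 20892416, plus strand), which RefSeq notes as closest to HSP23.6, had library values of 2.13, 2.75 and 2.18 FPKM (mock), 303, 197 and 98.9 (valinomycin), 1.45, 2.36 and 3.25 (DC3000) and 107, 187 and 101 (both). Mock and DC3000 libraries lay together at the bottom, and the lowest library with valinomycin was above all of them. It rose by 5.77 ± 0.33 (limma adjusted p = 1.21e-08) with valinomycin, the largest change of any member in that comparison on the log2(FPKM + 1) scale. As a ratio of group means without the added 1, its rise was 84.7-fold. By that measure it lay below HSP23.6 (160-fold), HSP17.6II (99.7-fold) and HSP17.6A (93.4-fold). HSP23.6 (AT4G25200; chromosome 4, 12916926 to 12918110, plus strand), the mitochondrial small heat shock protein that RefSeq labels HSP23.6-MITO, had library values of 0.0844, 0.530 and 0.176 FPKM (mock), 66.9, 36.2 and 23.3 (valinomycin), 0.319, 0.0743 and 0.262 (DC3000) and 21.9, 42.5 and 26.7 (both). It was under 1 FPKM in every library without valinomycin and rose by 4.98 ± 0.31 (limma adjusted p = 2.25e-08) with it, a call not independent of the limit on low values. Of the summed FPKM of the 9 small heat shock protein genes, these mitochondrial ones made up 10.8% ± 3.62 (mock), 45.7% ± 2.82 (valinomycin), 10.9% ± 0.705 (DC3000) and 37.1% ± 1.21 (both), while that sum was 24.8 ± 2.95, 519 ± 242, 23.4 ± 6.59 and 434 ± 139.9 FPKM in the same order. AT5G37670, the peroxisomal small heat shock protein gene, had library values of 1.75, 2.79 and 1.43 FPKM (mock), 2.46, 1.61 and 2.46 (valinomycin), 1.08, 1.57 and 2.14 (DC3000) and 1.95, 1.75 and 1.97 (both). All 4 groups overlapped, and it was not called with valinomycin (log2 difference 0.10 ± 0.20 with limma adjusted p = 0.692).

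**Figure D2:**
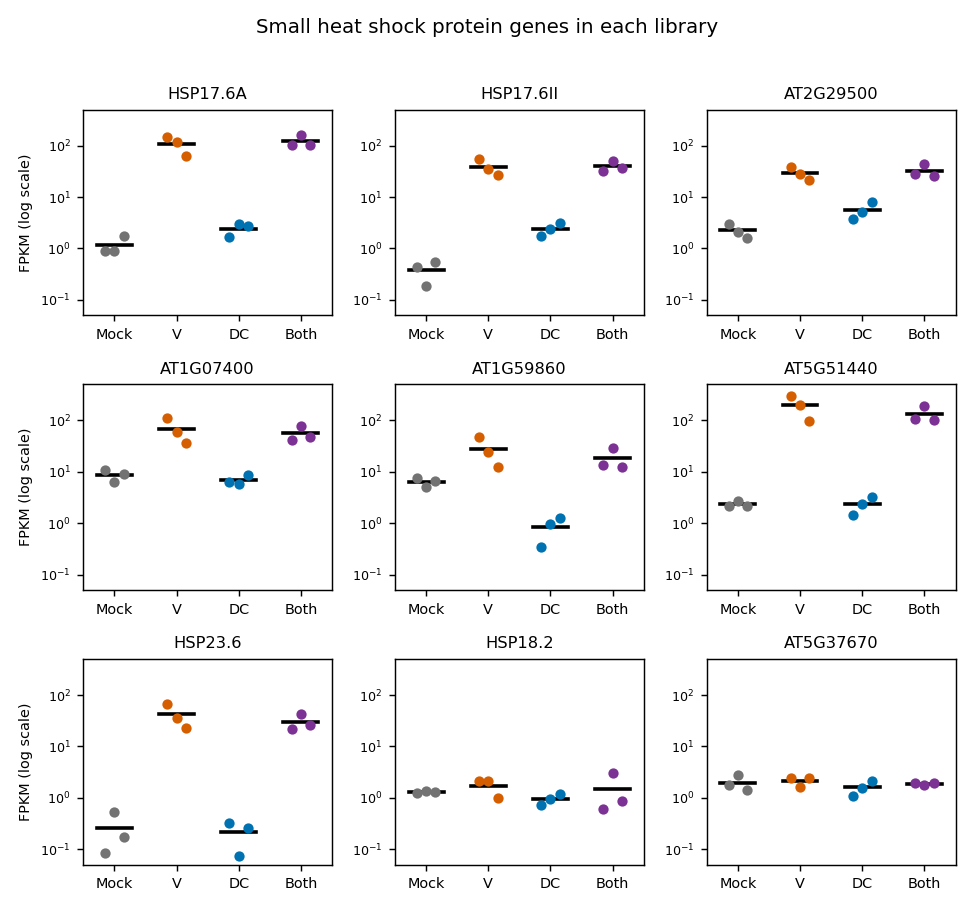
FPKM on a log axis in each of the 12 libraries for the 9 small heat shock protein genes with a row, with 1 point per library and a line at the group mean (V, valinomycin; DC, DC3000). In the panels of HSP17.6A, HSP17.6II, AT5G51440 and HSP23.6 all 6 libraries given valinomycin lie above all 6 libraries without it, while HSP18.2 and AT5G37670 stay low in every group.

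Among cytosolic HSP70 genes, the inducible ones rose and the always expressed HSC70-1 did not pass the test. HSP70-4 (AT3G12580; chromosome 3, 3991117 to 3993886, minus strand), an inducible cytosolic HSP70 that RefSeq labels HSP70, had library values of 26.3, 17.8 and 17.9 FPKM (mock), 174, 129.8 and 83.4 (valinomycin), 5.06, 9.498 and 11.5 (DC3000) and 72.2, 96.7 and 61.8 (both). The 4 groups did not overlap except for valinomycin with both, and DC3000 was the lowest. It rose by 2.55 ± 0.29 (limma adjusted p = 6.74e-06) with valinomycin. HSP70B, expressed at low levels, rose from 1.85 ± 0.373 to 12.2 ± 0.799 FPKM (log2 difference 2.22 ± 0.24 with limma adjusted p = 4.29e-06) and HSP70-2 from 5.17 ± 1.17 to 23.5 ± 4.696 FPKM (log2 difference 1.99 ± 0.23 with limma adjusted p = 7.33e-06). HSC70-1 (AT5G02500), the most abundant cytosolic HSP70 transcript, had library values of 1247, 1237 and 1044 FPKM (mock), 967, 988 and 988 (valinomycin), 799, 755 and 582 (DC3000) and 1052, 1004 and 876 (both). The valinomycin libraries lay below mock and the DC3000 libraries lower still. The difference with valinomycin was not called (log2 difference -0.26 ± 0.15 with limma adjusted p = 0.15), and it was called after rescaling at -0.57 (limma adjusted p = 0.0013). AT3G09440, next in abundance, went from 203 ± 32.5 to 289 ± 75.3 FPKM without a call (log2 difference 0.48 ± 0.25 with limma adjusted p = 0.123), but was called higher without valinomycin replicate 3 (limma adjusted p = 0.024). HSC70-1 and HSP70-2 are 86.7% identical over the aligned 77.1% to 79.5% of their transcripts, so a part of the HSP70-2 values may come from HSC70-1 reads, and this was not tested.

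The cytosolic HSP90 genes split. HSP90-1 (AT5G52640; chromosome 5, 21352557 to 21355147, plus strand), the stress-inducible copy, had library values of 13.6, 11.5 and 12.6 FPKM (mock), 256, 187 and 112 (valinomycin), 7.81, 10.9 and 17.43 (DC3000) and 135, 179.7 and 123 (both). Every library that received valinomycin exceeded every library that did not, and mock and DC3000 overlapped. It rose by 3.70 ± 0.28 (limma adjusted p = 1.53e-07). HSP90-2 (AT5G56030), expressed without stress, had library values of 138, 146 and 116 FPKM (mock), 107, 109 and 90.9 (valinomycin), 41.9, 44.1 and 48.3 (DC3000) and 72.3, 79.8 and 57.7 (both). Mock was highest, valinomycin next, then both, then DC3000, with no overlap between these groups. The fall with valinomycin was small (log2 difference -0.38 ± 0.15 with limma adjusted p = 0.0451) and was lost when any 1 of 8 libraries was left out, namely mock replicate 1 or 2, any valinomycin library, DC3000 replicate 1 or 2 or replicate 1 of both treatments (limma adjusted p up to 0.137 without valinomycin replicate 3). HSP90-4 fell by 0.44 on the log2 scale (limma adjusted p = 0.0196, and 0.0738 without valinomycin replicate 1 and 0.0589 without mock replicate 2). HSP90-3 was not called (log2 difference -0.39 ± 0.17 with limma adjusted p = 0.0684), and it was called lower after rescaling, at -0.70 (limma adjusted p = 0.00204), after scaling nuclear genes to 1 total (0.0384) and without mock replicate 3 (0.0284). HSP90-2, HSP90-3 and HSP90-4 lie close together on chromosome 5 and are 91.1% to 91.9% identical over the aligned 86.4% to 97.9% of their transcripts, so reads may be split between them.

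The makeup of the family differed between groups. HSP90-1 gave 4.75% ± 0.7503 of the summed FPKM of the 4 cytosolic HSP90 genes under mock, 47.6% ± 9.30 (valinomycin), 11.9% ± 3.34 (DC3000) and 52.6% ± 2.29 (both). The sum itself was 267 ± 31.9 FPKM (mock), 379 ± 79.6 (valinomycin), 98.9 ± 12.6 (DC3000) and 277 ± 51.4 (both). With both treatments the sum lay near that of mock, with HSP90-1 giving about as much as the other copies together. In the 5 cytosolic HSP70 genes apart from the HSP110-type HSP70-15, HSP70-4 and HSP70B together gave 1.597% ± 0.257 (mock), 9.72% ± 2.48 (valinomycin), 1.51% ± 0.664 (DC3000) and 6.75% ± 1.17 (both), with sums of 1407 ± 149, 1435 ± 116, 779 ± 91.3 and 1308 ± 148 FPKM. These shares are taken within a library and do not depend on how libraries were scaled.

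The disaggregase HSP101 (AT1G74310; chromosome 1, 27936508 to 27940369, minus strand), needed for acquired heat tolerance, had library values of 16.7, 14.4 and 13.3 FPKM (mock), 74.2, 50.1 and 27.4 (valinomycin), 2.46, 3.57 and 3.36 (DC3000) and 37.7, 51.7 and 33.5 (both). Valinomycin and both overlapped above mock, and DC3000 lay below mock. It rose by 1.60 ± 0.27 (limma adjusted p = 0.000241) with valinomycin. HOP3 (AT4G12400), which links HSP70 to HSP90, had library values of 5.29, 6.15 and 4.55 FPKM (mock), 70.9, 47.9 and 25.2 (valinomycin), 3.47, 3.42 and 5.48 (DC3000) and 37.6, 54.99 and 41.4 (both). It rose by 2.84 ± 0.29 (limma adjusted p = 2.22e-06) with valinomycin, and mock and DC3000 overlapped. ROF2, an FKBP-type co-chaperone of HSP90, rose from 6.801 ± 1.86 to 41.3 ± 15.99 FPKM (log2 difference 2.38 ± 0.27 with limma adjusted p = 5.48e-06), while its relative ROF1 was at 38.3 ± 4.74 and 39.3 ± 2.11 FPKM (limma adjusted p = 0.811). The J-domain partner of HSP70, J2, rose by 0.65 ± 0.19 (limma adjusted p = 0.00982), a call that was lost after rescaling (limma adjusted p = 0.135). J3, the more abundant J-domain gene, had library values of 145, 159 and 112 FPKM (mock), 154, 139.6 and 114 (valinomycin), 108, 102 and 97.2 (DC3000) and 153, 168 and 143 (both). Mock, valinomycin and both overlapped and DC3000 lay below them, and J3 was not called with valinomycin (limma adjusted p = 0.894), but was called lower after rescaling, at -0.34 (limma adjusted p = 0.0345). MBF1C, a transcriptional coactivator of heat tolerance, and HSA32, which prolongs heat memory, were not called either, with log2 fold changes of -0.38 ± 0.21 and -0.18 ± 0.17 (limma adjusted p = 0.141 and 0.389). After rescaling both were called lower (limma adjusted p = 0.0257 and 0.0393), and MBF1C was so without valinomycin replicate 1 as well (limma adjusted p = 0.00775). HSA32 had library values of 2.23, 2.59 and 1.98 FPKM (mock), 1.66, 2.42 and 1.62 (valinomycin), 1.15, 0.807 and 1.43 (DC3000) and 2.68, 2.37 and 2.096 (both). Its DC3000 libraries were the lowest, and mock, valinomycin and both overlapped.

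**Figure D3:**
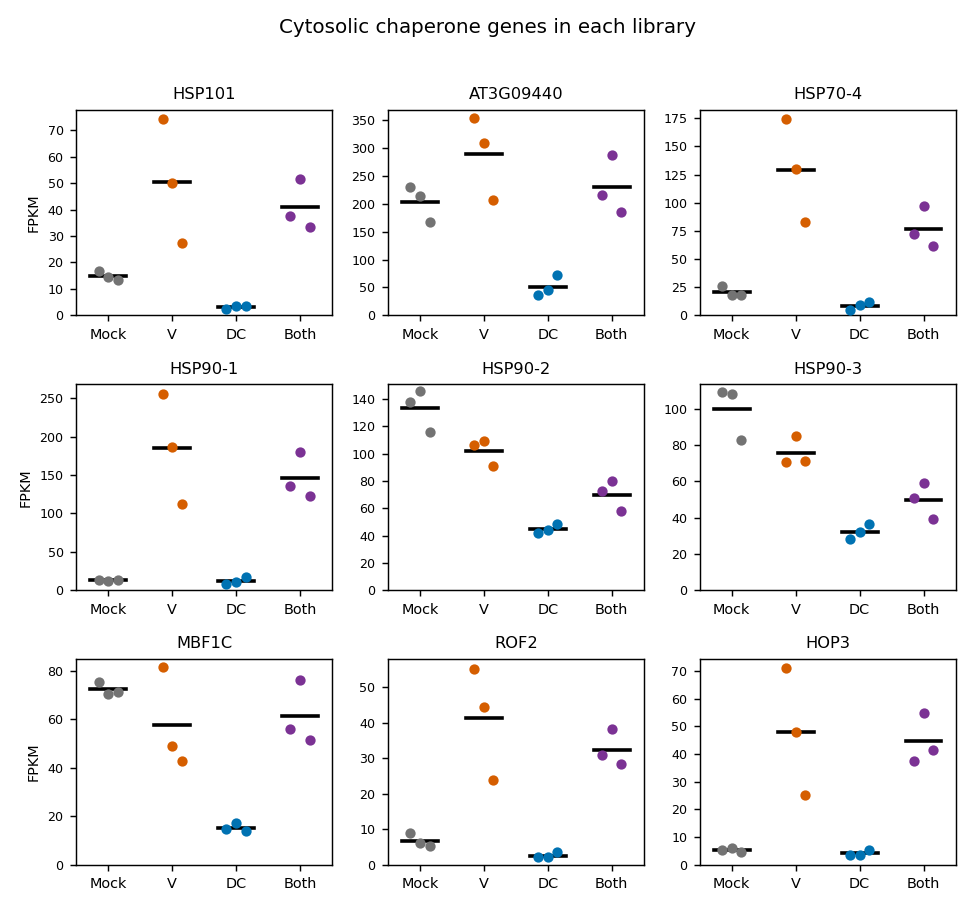
FPKM on linear axes from 0 in each of the 12 libraries for 9 cytosolic chaperone and heat response genes, with 1 point per library and a line at the group mean (V, valinomycin; DC, DC3000). HSP90-1 and HOP3 are high only in the 6 libraries given valinomycin, HSP101 and MBF1C are lowest with DC3000 alone, and HSP90-2 and HSP90-3 have their highest group mean in mock.

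In the mitochondrion the rise was steepest for the small heat shock proteins, smaller for the HSP70 and ClpB genes and smallest for the HSP60 folding chamber. mtHSC70-1 (AT4G37910; chromosome 4, 17824777 to 17828192, minus strand), an HSP70 of the matrix that also pulls in imported proteins, had library values of 25.03, 29.4 and 20.9 FPKM (mock), 257, 175 and 102 (valinomycin), 26.01, 25.4 and 24.4 (DC3000) and 134, 182 and 122 (both). Mock and DC3000 overlapped and both valinomycin groups lay above them. It rose by 2.69 ± 0.26 (limma adjusted p = 1.28e-06) with valinomycin. CLPB4 (AT2G25140), the mitochondrial disaggregase, had library values of 5.66, 5.35 and 4.09 FPKM (mock), 35.6, 29.4 and 14.6 (valinomycin), 3.65, 3.89 and 4.02 (DC3000) and 24.9, 29.96 and 22.2 (both). DC3000 lay just below mock, without a call, and both valinomycin groups lay above mock. It rose by 2.11 ± 0.25 (limma adjusted p = 8.25e-06). The second matrix HSP70, mtHSC70-2, rose by 0.84 ± 0.16 (limma adjusted p = 0.000537), and mtHSC70-1 made up 87.8% ± 4.34 of the pair with valinomycin against 67.6% ± 1.63 in mock.

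HSP90-6, the mitochondrial HSP90, had library values of 11.4, 10.8 and 8.61 FPKM (mock), 16.7, 20.3 and 22.4 (valinomycin), 12.9, 13.1 and 11.1 (DC3000) and 19.5, 16.05 and 17.2 (both). Each valinomycin library was above each mock and DC3000 library, and it rose by 0.89 ± 0.15 (limma adjusted p = 0.000262). CPN10, the lid of the folding chamber, had library values of 39.2, 50.03 and 36.4 FPKM (mock), 50.7, 62.9 and 59.02 (valinomycin), 39.5, 42.2 and 30.5 (DC3000) and 47.8, 49.5 and 41.4 (both). Its valinomycin libraries were above all mock libraries by a small margin. The rise with valinomycin, 0.46 ± 0.16 (limma adjusted p = 0.0286), and that of HSP60-2, 0.43 ± 0.17 (limma adjusted p = 0.0444), did not survive rescaling (limma adjusted p = 0.27 and 0.419). Each was also lost without mock replicate 1, mock replicate 3, valinomycin replicate 2 or valinomycin replicate 3, and that of HSP60-2 also without DC3000 replicate 2 or any library of both treatments (limma adjusted p up to 0.108 for CPN10 and 0.149 for HSP60-2). HSP60 and HSP60-3A were not called (limma adjusted p = 0.164 and 0.142). With both treatments against mock 22 of the 38 members were higher and 4 lower, where of all tested genes 60.3% were called, 37.2% higher and 23.1% lower (after rescaling 22 and 7 members, and 6003 and 5726 of all genes in place of 6711 and 4173). Among these 9 of the 10 mitochondrial members were higher, CPN10 being the exception. Without replicate 2 of both treatments HSP60-3A and the cytosolic AT1G59860 were not called there (limma adjusted p = 0.0677 and 0.0562).

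The 2 plastid members with a row, neither of them a small heat shock protein, did not follow. The listed plastid small heat shock protein gene, HSP21, has no row, so this family cannot be compared between plastid and the other compartments. CLPB3 (AT5G15450), the plastid disaggregase needed for chloroplast development, had library values of 27.3, 23.7 and 17.7 FPKM (mock), 13.4, 13.1 and 11.96 (valinomycin), 12.6, 12.3 and 11.2 (DC3000) and 13.5, 14.8 and 13.9 (both). All treated libraries lay below all mock libraries. Valinomycin and DC3000 overlapped, and the libraries of both treatments lay just above them. It fell by 0.77 ± 0.15 on the log2 scale with valinomycin, by 0.85 ± 0.15 with DC3000 and by 0.65 ± 0.15 with both (limma adjusted p = 0.000783, 0.000352 and 0.00211). HSP90-5, the plastid HSP90, had library values of 54.8, 56.3 and 41.2 FPKM (mock), 34.95, 35.5 and 47.7 (valinomycin), 35.9, 33.8 and 31.4 (DC3000) and 47.6, 43.6 and 40.2 (both). It was called lower with DC3000, at -0.57 ± 0.16 (limma adjusted p = 0.00853), and not with valinomycin (limma adjusted p = 0.0684), where it was called lower without mock replicate 3 or valinomycin replicate 3 (limma adjusted p = 0.0168 and 0.0152) and after rescaling (limma adjusted p = 0.000372). The DC3000 libraries lay below all mock libraries, and those of valinomycin and of both overlapped mock. Of 12 further plastid chaperone genes from a list of the plastid HSP70, CPN60, CPN10, CPN20 and Clp proteins, 7 were lower and 1 higher with valinomycin, 7 lower and 2 higher with DC3000 and 8 lower and 2 higher with both, with medians of -0.79, -0.64 and -0.81. Over all tested genes 13.8% were lower and 38.5% higher with valinomycin, 17.2% and 31.6% with DC3000 and 23.1% and 37.2% with both. The medians of all tested genes were 0.27, 0.18 and 0.17 in the same order. CPN60B1, a subunit of the plastid folding chamber, fell from 218 ± 34.7 to 74.9 ± 13.2 FPKM with valinomycin, and CLPD, a stress-induced Clp ATPase, rose from 13.96 ± 3.33 to 133 ± 62.2 FPKM (limma adjusted p = 1.9e-06 and 3.25e-06). The photosynthesis markers of the leaf list moved the same way in part, with 3 of 6 lower in each single treatment and 5 of 6 with both. Their summed FPKM ran from 35322 to 39101 in mock, 23085 to 26606 with valinomycin, 23393 to 27195 with DC3000 and 15895 to 18691 with both, and their part in the plastid values was not tested.

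HSP90-7, the HSP90 of the endoplasmic reticulum, had library values of 76.5, 73.7 and 50.9 FPKM (mock), 50.4, 73.9 and 102 (valinomycin), 60.7, 61.9 and 71.5 (DC3000) and 53.8, 43.3 and 48.7 (both). The valinomycin libraries spread from below mock to above it, and with all libraries it was called in no comparison as deposited, but after rescaling it was called lower with both than with mock, at -0.63 (limma adjusted p = 0.0144). Without valinomycin replicate 1 it was called lower with both than with mock and than with valinomycin (limma adjusted p = 0.043 and 0.0114), and the former also without mock replicate 3 or valinomycin replicate 3 (limma adjusted p = 0.0367 and 0.0413). Of 14 other chaperone genes of the endoplasmic reticulum, 7 were higher and 0 lower with valinomycin, 5 higher and 0 lower with DC3000, and 3 higher and 5 lower with both, by limma, where over all tested genes 38.5% were higher and 13.8% lower with valinomycin, 31.6% and 17.2% with DC3000 and 37.2% and 23.1% with both, so that the higher count with DC3000 is near the background. At an unadjusted p under 0.05, 0 were lower with valinomycin and 0 with DC3000. ERDJ3A, a J-domain partner of BiP, rose from 1.17 ± 0.203 to 5.84 ± 1.83 FPKM with valinomycin (limma adjusted p = 9.52e-05). BIP3, the stress-induced BiP, was at 0.1301 ± 0.04801 FPKM in mock and 3.65 ± 2.66 FPKM with valinomycin, and it passed the limit on low values through the groups given valinomycin, so its call is not independent of that limit.

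**Figure D4:**
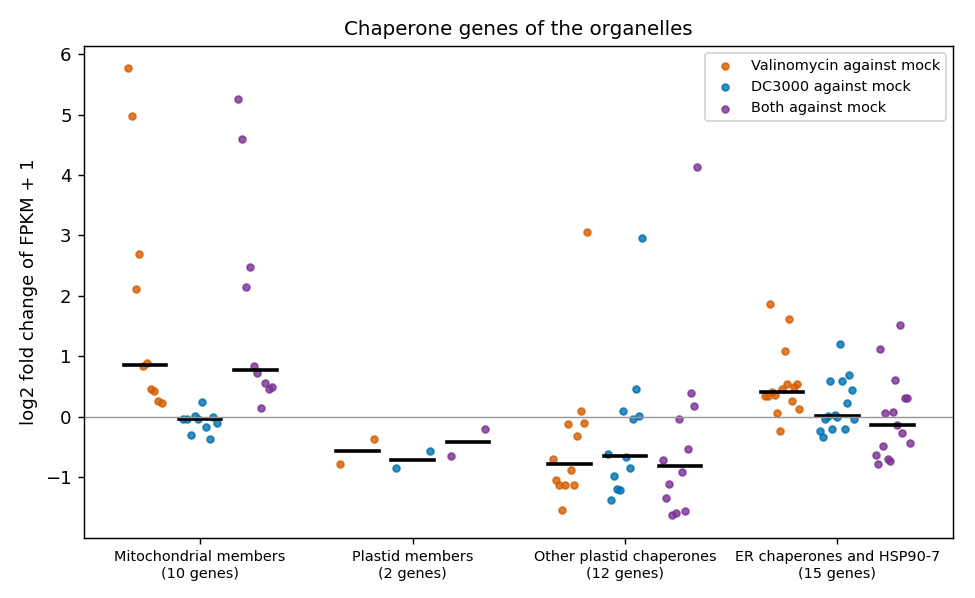
Log2 fold change of FPKM + 1 against mock for chaperone genes of 3 organelles, with 1 point per gene and a line at the median of each set. The mitochondrial members have medians of 0.86 with valinomycin, -0.04 with DC3000 and 0.78 with both, while the medians of the plastid sets lie below 0 in all 3 comparisons.

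The bacterium alone was compared with mock next, and here MBF1C, HSP101, AT3G09440, HSP70-4 and the cytosolic HSP90 genes expressed without stress fell. Of 38 members 2 were called higher and 16 lower, where 31.6% of all tested genes were called higher and 17.2% lower. The higher ones were HSP17.6II and AT2G29500. Of the 16 lower ones 14 were counted with the cytosol, MBF1C among them, and 2 were the plastid members. None of the 10 mitochondrial members was called by limma, with 0 higher and 0 lower at an unadjusted p under 0.05, and their median was -0.04, against -0.56 for the cytosolic members and 0.18 for all tested genes. After rescaling, which gave 4694 genes higher and 4935 lower in place of 5707 and 3096, HSP60, HSP60-2 and CPN10 were called lower (limma adjusted p = 0.00709, 0.00688 and 0.0112), and HSP60-2 also without mock replicate 3 or DC3000 replicate 3 (limma adjusted p = 0.0342 and 0.0362).

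MBF1C (AT3G24500; chromosome 3, 8918267 to 8919683, plus strand) showed the largest fall on the log2(FPKM + 1) scale. As a ratio of group means without the added 1, AT1G59860 fell 7.54-fold and HSP101 4.73-fold, against 4.72-fold for MBF1C. MBF1C had library values of 75.5, 70.3 and 71.3 FPKM (mock), 81.3, 48.8 and 42.7 (valinomycin), 14.9, 17.3 and 13.8 (DC3000) and 55.8, 76.2 and 51.3 (both). The DC3000 libraries lay far below all others, and the other 3 groups lay together. The fall was -2.17 ± 0.21 (limma adjusted p = 1.01e-06). The locus overlaps exons of 3 genes on the opposite strand, and the use of strand in counting is not given in the sources used here. AT3G09440, an abundant cytosolic HSP70 gene, had library values of 229.5, 213 and 167 FPKM (mock), 353, 309 and 206 (valinomycin), 36.1, 45.6 and 72.4 (DC3000) and 216, 287 and 185 (both). It fell by 2.01 ± 0.25 (limma adjusted p = 1.53e-05) with DC3000, and mock, valinomycin and both overlapped. HSP101 fell from 14.8 ± 1.73 to 3.13 ± 0.592 FPKM (log2 difference -1.94 ± 0.27 with limma adjusted p = 4.3e-05).

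The HSP90 copies expressed without stress fell together, HSP90-2 by 1.55 ± 0.15, HSP90-3 by 1.60 ± 0.17 and HSP90-4 by 1.04 ± 0.14 (limma adjusted p = 9.41e-07, 2.85e-06 and 3.71e-05), while HSP90-1 averaged 12.6 ± 1.07 FPKM under mock and 12.04 ± 4.91 FPKM under DC3000, with no call (limma adjusted p = 0.744). HSP70-4 fell by 1.198 ± 0.29, ROF2 by 1.10 ± 0.27 and HSC70-1 by 0.73 ± 0.15 (limma adjusted p = 0.00342, 0.00336 and 0.000824). ROF1, HSA32, HSP70-15 and J3 fell by 0.42 to 0.62. The fall of HSP70-15 was lost without mock replicate 1 (limma adjusted p = 0.0558) and that of J3 without mock replicate 1 or 2 or any DC3000 library (limma adjusted p up to 0.124). HSP70-15 is 95.4% identical to HSP70-14 over 89.1% of its transcript, so its values are uncertain.

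Both treatments against DC3000 alone asks what valinomycin did in infected seedlings. The mock mean does not enter this difference, but the spread was estimated from all 12 libraries. Of 38 members 31 were called higher and 0 lower, where 14.1% of all tested genes were called higher and 13.5% lower (at an unadjusted p under 0.05, 32 members higher and 0 lower). By compartment 22 of 24 cytosolic and 9 of 10 mitochondrial members were higher and 0 of 2 plastid members. The plastid HSP90-5 was called higher after rescaling, at 0.395 (limma adjusted p = 0.0183), and with only the 2 groups compared (limma adjusted p = 0.0339). The mitochondrial CPN10 was called higher after rescaling as well (limma adjusted p = 0.0301). The median was 1.83 in the cytosol and 0.90 in the mitochondrion, against -0.06 over all tested genes. The largest rises were those of AT5G51440 at 5.29 ± 0.33 (limma adjusted p = 3.52e-07), HSP17.6A at 5.15 ± 0.28 (limma adjusted p = 1.72e-07) and HSP23.6 at 4.64 ± 0.31 (limma adjusted p = 4.98e-07). The HSP23.6 call is not independent of the limit on low values. All 8 HSP70 members and all 7 co-chaperone and heat response genes were higher, MBF1C by 1.91 ± 0.21 (limma adjusted p = 3.26e-05) and AT3G09440 by 2.17 ± 0.25 (limma adjusted p = 5.19e-05). The call of HSP90-6 was lost without any 1 of the 6 libraries compared (limma adjusted p up to 0.125). That of HSP60-3A was lost without any DC3000 library or replicate 1 or 2 of both treatments (up to 0.132), that of HSP90-3 without replicate 1 or 2 of either group (up to 0.0999), that of HSC70-1 without DC3000 replicate 2 or 3 or replicate 1 or 2 of both treatments (up to 0.107) and that of J3 without replicate 2 of both treatments (0.0574). Without replicate 2 of both treatments, the highest of its group in 31 of 38 members, 26 members were called higher. Of the clock genes 3 of 12 were higher and 0 lower by limma (4 and 0 at an unadjusted p under 0.05).

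Both treatments against valinomycin alone asks what the bacterium did in seedlings that also received valinomycin. By limma 0 members were called higher and 3 lower, where 4.72% of all tested genes were higher and 10.4% lower. At an unadjusted p under 0.05, 0 members were higher and 6 lower, and after rescaling 1 member, HSP60, was called higher (limma adjusted p = 0.00839), with 1852 of all genes higher and 1576 lower in place of 851 and 1869. The lower ones were HSP70-2 at -0.89 ± 0.23 (limma adjusted p = 0.018), HSP90-2 at -0.55 ± 0.15 (limma adjusted p = 0.0229) and HSP90-3 at -0.62 ± 0.17 (limma adjusted p = 0.026). All 3 calls were lost without valinomycin replicate 2 or without replicate 1 or 3 of both treatments (limma adjusted p up to 0.0805, 0.114 and 0.124), and that of HSP90-2 also without valinomycin replicate 1. Without valinomycin replicate 3, AT5G51440 and HSP70-4 were called lower as well, at -0.94 and -0.98 (limma adjusted p = 0.0308 and 0.027). For MBF1C, which fell with DC3000 alone, the difference was 0.12 ± 0.21 (limma adjusted p = 0.749), and for HSP101 it was -0.21 ± 0.27 (limma adjusted p = 0.65). HSP17.6A differed by 0.21 ± 0.28 (limma adjusted p = 0.664). A miss of the threshold does not show that these groups are alike. Of the clock genes 2 of 12, LHY and CCA1, were lower, and of the leaf markers 4 of 6 (6 at an unadjusted p under 0.05), and their part in the members' values was not tested.

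Valinomycin set directly against DC3000 had 29 members higher and 0 lower, where 17.9% of all tested genes were higher and 8.18% lower (at an unadjusted p under 0.05, 32 members higher and 0 lower; after rescaling 3194 and 2840 of all genes in place of 3234 and 1477). All 8 HSP70 members were higher, 5 of 7 HSP90 members and 7 of 9 small heat shock proteins. The calls of HSC70-1, at 0.47 ± 0.15 (limma adjusted p = 0.0254), and CPN10, at 0.62 ± 0.16 (limma adjusted p = 0.0107), were lost without DC3000 replicate 3 or valinomycin replicate 2, and that of HSC70-1 also without valinomycin replicate 1 (limma adjusted p up to 0.106 and 0.0539). The members not called were CLPB3, HSP90-5, HSP90-7, AT5G37670, HSP18.2, HSP60, HSP60-3A, HSA32 and J3. Of these HSP60 was called higher without mock replicate 3 (limma adjusted p = 0.0314), J3 without mock replicate 3 or valinomycin replicate 3 (0.0402 and 0.0237) and HSA32 without DC3000 replicate 3 (0.0437). Of the clock genes 6 of 12 were higher and 0 lower by limma (6 and 1 at an unadjusted p under 0.05).

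The interaction asks whether the effect of valinomycin differed between seedlings with and without DC3000. 12 members had a more positive valinomycin effect with DC3000 than without it and 1 a less positive one, where of all tested genes 24.7% were called, 5.25% higher and 19.4% lower. After rescaling, which moves the median of all genes from -0.29 to -0.003, 17 members were higher and 0 lower, and 2487 of all genes were higher and 2186 lower in place of 947 and 3502. MBF1C had the largest value, at 2.29 ± 0.30 (limma adjusted p = 9.6e-05): valinomycin made a difference of -0.38 ± 0.21 without DC3000, which was not called, and of 1.91 ± 0.21 with it. HSP101 had 1.73 ± 0.39 (limma adjusted p = 0.00565) and AT3G09440 1.69 ± 0.36 (limma adjusted p = 0.00416), both of them genes at their lowest with DC3000 alone. For HSP90-2 valinomycin made a difference of -0.38 ± 0.15 without DC3000 and of 0.62 ± 0.15 with it (interaction limma adjusted p = 0.00388). HSP17.6II, which rose in both settings, had the smaller rise with DC3000, at -1.21 ± 0.34 (limma adjusted p = 0.02), a call lost after rescaling (limma adjusted p = 0.081) and without replicate 1 of both treatments (limma adjusted p = 0.0536). The more positive effects numbered 7 without DC3000 replicate 2, 7 without replicate 1 of both treatments and 8 without its replicate 2. Besides HSP17.6II, HSP90-7 was called less positive without valinomycin replicate 1 and AT2G29500 without valinomycin replicate 3 (limma adjusted p = 0.0401 and 0.0475). None of the 10 mitochondrial members was called by limma (0 higher and 0 lower at an unadjusted p under 0.05), their values running from -0.48 to 0.49. After rescaling HSP60, HSP60-2 and HSP60-3A were called higher (limma adjusted p = 0.00121, 0.0143 and 0.028), and HSP60 without mock replicate 3 (limma adjusted p = 0.0444). All 12 clock genes were called in the interaction, 5 higher and 7 lower, and their part in the members' values was not tested.

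Regulators of the heat response were taken from a list of 18 heat shock factors and related genes, of which 15 were tested. With valinomycin 8 were higher and 1 lower, with DC3000 5 higher and 3 lower, and with both against DC3000 8 higher and 1 lower. Over all tested genes the shares were 38.5% higher and 13.8% lower with valinomycin, 31.6% and 17.2% with DC3000, and 14.1% and 13.5% with both against DC3000, so the counts with DC3000 are near the background. HSFA4A, a heat shock factor of the oxidative stress response, rose from 2.05 ± 0.544 to 36.5 ± 19.3 FPKM and DREB2A, an activator in heat and drought, from 3.37 ± 1.42 to 45.9 ± 18.7 FPKM with valinomycin (limma adjusted p = 1.15e-06 and 9.48e-07). HSFA2, which extends heat shock gene transcription, was named after its values were seen. It had library values of 18.16, 10.8 and 12.7 FPKM (mock), 61.5, 39.7 and 16.5 (valinomycin), 0.550, 0.685 and 2.39 (DC3000) and 23.0, 33.4 and 18.55 (both). DC3000 lay below mock without overlap, and valinomycin replicate 3 lay within the range of mock. It rose by 1.28 ± 0.40 (limma adjusted p = 0.0144) with valinomycin and fell with DC3000, at -2.82 ± 0.40 (limma adjusted p = 4.18e-05). Of 15 tested cytosolic chaperones and co-chaperones outside the 38, 8 were higher and 0 lower by limma with valinomycin (1 lower at an unadjusted p under 0.05), and 4 higher and 4 lower with DC3000, where the same shares over all tested genes apply and the higher count with DC3000 is near the background. The largest rises with valinomycin among them were those of BAG6, a regulator of cell death, at 3.55 ± 0.21 (limma adjusted p = 1.72e-08) and FES1A, an exchange factor of HSP70, at 1.71 ± 0.23 (limma adjusted p = 2.93e-05).

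The libraries of a group differed in how far the genes had moved. Of the 21 members called higher with valinomycin, replicate 3 of that group was the lowest of its 3 libraries in 18 and replicate 1 the highest in 15. In the group with both treatments replicate 2 was the highest in 19 of these 21. Without valinomycin replicate 3, 20 members were called higher with valinomycin and 3 lower.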

How the data were processed

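The authors deposited 1 table of normalized values per gene, and FPKM is inferred: library totals differ and exceed 1e+06. Per the submitters' processing notes the genome build was TAIR10; for aligner, quantifier and strand use, nothing is given in the sources used here. The kit was CORALL total RNA-seq, per the labels' protocols. Low values multiplied by transcript length fell on no clean steps (alignment 0.126 to 0.197, where 1 is perfect), so read depth is unknown and no read counts entered. The table holds no 0, and why the 5 listed small heat shock protein genes have no row is not given. Whether these 5 genes changed in any group is therefore unknown.

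All 12 libraries entered 1 limma model (3.58.1, R 4.3.3; 8 residual degrees of freedom) of group means on log2(FPKM + 1), with a trend of the spread and a mean of at least 1 FPKM. The model was also run on simulated data with known changes in few genes. In the real data 52.3% of tested genes were called with valinomycin, so that run does not vouch for these calls. Promoters were read from TAIR10.1, which holds the locus tags of all 20054 nuclear genes deposited. Copies were searched with blastn 2.17.0, at 85% identity or more over 50% or more of the transcript; 95% or more counts as near-identical. Overlapping exons on the opposite strand touch HSP101, CLPB3, AT3G09440, MBF1C, HOP3 and J2, and on the same strand CPN10 and HSA32.

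Every member may be named; values per library are given for the member with the largest change with valinomycin and the one with the highest mean in each family and compartment, and for others the results turn on. From each other list up to 2 called genes with the largest change with valinomycin were named. The members and lists were chosen with earlier results of these data known. Alternatives were another pseudocount, filter, scaling, a replicate block, fits of 2 groups and leaving out each library.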

Additional observations from a re-analysis of the deposited data

Results flagged for a closer look

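For 13 members a test of the difference itself (the interaction) found that the valinomycin effect on the log2 scale differed between seedlings with and without DC3000. The effect was more positive with DC3000 for MBF1C by 2.29, HSP101 by 1.73, AT3G09440 by 1.69, HSP90-2 by 0.999, HSP90-3 by 0.99, CLPB3 by 0.98, HSA32 by 0.85, HSP90-5 by 0.73, HSC70-1 by 0.72, HSP90-4 by 0.65, HSP70-15 by 0.598 and ROF1 by 0.57. It was less positive for HSP17.6II, at -1.21. Of these, HSP90-4, HSP90-5, HSP70-15 and ROF1 each lost the call when any 1 of 8 or more single libraries was left out, and HSP17.6II, HSA32 and HSC70-1 when 1 particular library was (replicate 1 of both treatments for HSP17.6II and HSC70-1, DC3000 replicate 2 for HSA32). All 13 genes are counted with the cytosol or, for CLPB3 and HSP90-5, the plastid, which hold 24 and 2 of the 38 members. After median-of-ratios rescaling the mitochondrial HSP60, HSP60-2 and HSP60-3A were called more positive too (limma adjusted p = 0.00121, 0.0143 and 0.028). HSP17.6II was not called there (limma adjusted p = 0.081).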

How the results depend on the processing

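The members' calls kept their direction under every alternative run, with 0 called values changing sign. For single members and comparisons, 120 calls were lost and 69 gained across the alternatives. Median-of-ratios rescaling (size factors 0.742 for mock replicate 3 to 1.14 for valinomycin replicate 2) gave 9 members lower for valinomycin against mock, 7 for both against mock and 0 in the interaction, and 1 higher for both against valinomycin. Over all genes it gave 4875 lower for valinomycin and 4935 for DC3000 against mock, 1852 higher for both against valinomycin, 2840 lower for valinomycin against DC3000, and 2487 higher and 2186 lower in the interaction. Scaling the nuclear genes to 1 total gave 1613 genes lower for both against DC3000. Fitting only the 2 groups compared gave 1 member lower for valinomycin against mock, 1 for both against DC3000 (HSP90-7, limma adjusted p = 0.0323) and 1 for both against valinomycin. Leaving out each library in turn gave 1 to 5 members lower for valinomycin against mock, 0 to 5 lower for both against valinomycin, and 7 to 14 higher and 0 to 2 lower in the interaction. Over all genes it gave 1674 to 2894 higher and 1240 to 2830 lower for both against DC3000, 546 to 948 higher and 1036 to 2216 lower for both against valinomycin, and 976 to 1677 lower for valinomycin against DC3000. The cause of these shifts was not tested. No consistent pairing of the libraries by replicate number was seen. Deviations of same-numbered libraries correlated between -0.242 and 0.439, over 0.1 in 3 of 18 pairs, and 4 of 12 libraries correlated best with their own number. These values cannot show whether same-numbered libraries shared an origin. With the replicate block 20 members were higher and 3 lower for valinomycin against mock, 2 and 16 for DC3000 against mock, 22 and 4 for both against mock, 31 and 0 for both against DC3000, 0 and 3 for both against valinomycin, 30 and 0 for valinomycin against DC3000, and 13 and 1 in the interaction. The depth is unknown, so no counting error could be given for low members such as HSP23.6 in mock.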
